A study of Homo sapiens with 48 samples.

Results

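The comparison described here is that of the METTL3 inhibitor STM2457 with its solvent DMSO among the transcripts left in NGP cells after 6 h without transcription. NGP is a human neuroblastoma line with amplified MYCN and no further modification, per the labels. The cells were kept with 8 µM STM2457 or with DMSO for 3 or 6 days, and actinomycin D at 10 µg/ml was then present for 6 h in every library of both arms. The libraries were chosen by their titles, and they are 8 of the 48 in the series: 4 with STM2457 and 4 with DMSO, each arm made of 2 libraries at 3 days and 2 at 6 days. As no library from before actinomycin D enters, a difference that was already there at the start of the block and one that arose during the 6 h cannot be told apart here. The labels do not say whether the 2 libraries of a group came from separate cultures, so p-values measure the spread between these libraries, which may be technical.

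METTL3 and METTL14 form the enzyme that places N6-methyladenosine (m6A) on messenger RNA in the nucleus, together with partners such as WTAP, VIRMA and RBM15. ALKBH5 and FTO can remove the mark, and reader proteins of the YTH family bind it and can direct transcripts to decay. Actinomycin D binds DNA and stops RNA polymerases, so that what is sequenced afterwards is the older RNA of the cell, long-lived transcripts in particular. Neuroblastoma arises from the sympathoadrenal lineage of the neural crest, and its cells carry either an adrenergic or a mesenchymal programme.

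The 8 libraries held 11139550 to 21942238 fragments in protein-coding genes. The 14 sympathoadrenal markers summed to 3082 to 3660 CPM with DMSO and 3708 to 4153 CPM with STM2457. CPM is a gene's count relative to the library total. Elsewhere, unless stated, it is taken after TMM scaling, which sets the typical gene to no change. The marker sums in this paragraph are without that scaling. The factors by which TMM multiplies the library total were 0.965 to 1.002 with DMSO and 1.013 to 1.022 with STM2457. Whether the narrow gap between these sums remains after scaling was not tested. In the test described below, which uses TMM, 4 of the 14 rose and 1 fell, with a median log2 change of 0.03. TH, the first enzyme of catecholamine synthesis, had only 2 to 47 fragments in a library, so the line carries the lineage's markers with little of this one. The 15 mesenchymal-type markers summed to 311 to 345 CPM with DMSO and 441 to 539 CPM with STM2457. Of these only FN1, VIM and TWIST1 had 1044 fragments or more in every library. AXL had at most 5 fragments, and CD44, YAP1, WWTR1, NOTCH2 and TGFBI at most 24. FOSL1, SNAI2, IFI16 and RUNX1 had at most 76. Markers of Schwann cells and glia (7 of the 8 are in the files), leukocytes (6) and epithelium (6) each summed to at most 8.17 CPM in a library, and CDH19 and CD3E were at 0 in all 8. The 8 fibroblast markers summed to 348 to 422 CPM with DMSO and 320 to 360 CPM with STM2457. DCN had no more than 9 fragments in a library, COL1A2 no more than 15 and LUM no more than 69. COL1A1, PDGFRA and PDGFRB had at least 868. In bulk RNA, fewer cells of a type and less RNA per cell cannot be told apart.

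More genes had at least 1 fragment with STM2457 than with DMSO. The 4 DMSO libraries detected 13785 to 13866 genes, and those with STM2457 detected 14722 and 14963 after 3 days and 14338 and 13962 after 6 days. The difference in means was 679 genes (exact two-sided permutation test that ignores duration, p = 0.029, n = 4 against 4, the smallest p this test allows). Genes at 0 in all 4 DMSO libraries took 341 and 365 CPM (here without TMM scaling) in the STM2457 libraries of 3 days and 148 and 158 in those of 6 days. The converse set, at 0 in all 4 STM2457 libraries, took 67.1 to 84.8 CPM in the DMSO libraries. The part of this gap in the results below was not tested. The gap was smaller after 6 days, and the calls in the libraries of each duration alone are given beside the comparison of the durations.

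Of 13649 genes tested with edgeR's quasi-likelihood test, with duration as a covariate, 1447 (10.6%) passed an adjusted p of 0.05. STM2457 left 697 of them higher (5.11% of the genes tested) and 750 lower (5.49%). The changes were mostly small: the median size was 0.53 on the log2 scale among the higher genes and 0.38 among the lower ones, and 91 and 60 genes respectively differed by at least 2-fold. In 437 of the 697 and 341 of the 750, the 4 STM2457 libraries lay wholly on one side of the 4 DMSO libraries, against 5.39% (higher) and 4.14% (lower) of all genes tested. These directions are relative to the typical gene. With the ERCC spike-ins (synthetic RNAs added to a sample) as the scale, the median of all genes moved from 0 to 0.31, and 3900 genes were called higher and 98 lower. With library size as the only scaling the split was 955 higher and 537 lower.

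**Figure D1:**
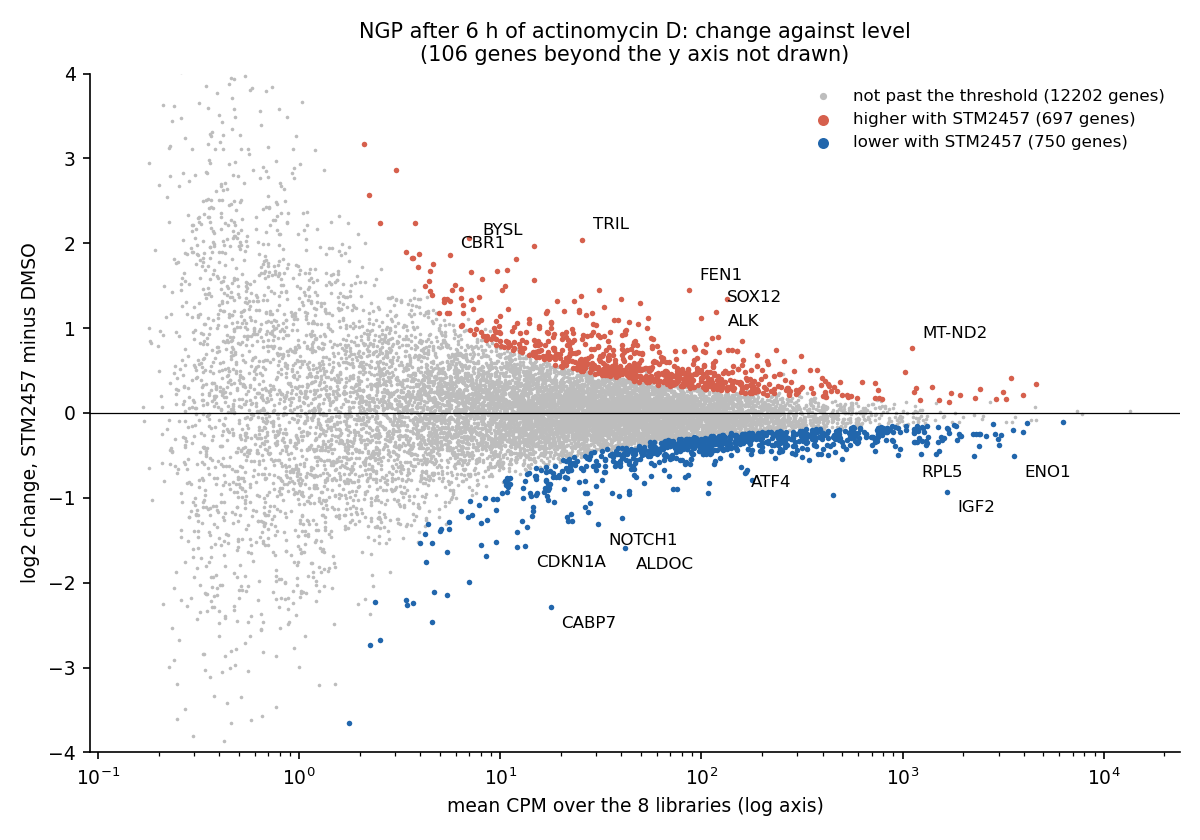
Each point is a gene, placed by its mean CPM over the 8 libraries (log axis) and its log2 change, STM2457 minus DMSO; 697 genes that passed as higher are in red, 750 that passed as lower in blue. Abundant genes passed at small changes, such as RPL5 and ENO1, and of the genes labelled, those with the largest changes, TRIL and CABP7, lie at far lower levels.

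Large changes are described here for genes that passed, whose mean was 10 CPM or more and whose arms did not overlap. The 10 largest increases of this kind fell on genes with varied roles, and 4 of the 10 have no more than 2 separate exon blocks. Of all 13649 genes tested, 365 have 1 such block and 445 have 2. TRIL (chr7:28953358-28958330 in hg38), a membrane protein that helps Toll-like receptor signalling, had 14.5 and 17.5 CPM with DMSO against 38.6 and 43 with STM2457 after 3 days, and 5.28 and 6.09 against 44.3 and 34.8 after 6 days. All 4 STM2457 libraries stood above the DMSO libraries, with a log2 change of 2.04 ± 0.21 (SE, adjusted p = 3.7e-09). BYSL (chr6:41921499-41933046), a factor needed to mature the small ribosomal subunit, had 8.5 and 4.95 CPM with DMSO against 27.1 and 29.2 with STM2457 after 3 days, and 4.28 and 5.88 against 20.8 and 16.4 after 6 days. Its groups did not overlap at either duration, and its change was 1.97 ± 0.23 (SE, adjusted p = 5e-08). CBR1 (chr21:36069941-36073166), a carbonyl reductase, stood at 6.78 and 4.88 CPM with DMSO against 21.2 and 26.7 with STM2457 after 3 days, and 6.32 and 2.53 against 14.8 and 12.4 after 6 days, a change of 1.82 ± 0.26 (SE, adjusted p = 3.6e-06). FEN1 (chr11:61792911-61797238), the flap endonuclease that trims Okazaki fragments, was the best measured of the group, with 56 and 51.4 CPM with DMSO against 149 and 133 with STM2457 after 3 days, and 37.8 and 42.2 against 115 and 112 after 6 days. Its level with STM2457 was above every DMSO library, the change was 1.45 ± 0.10 (SE, adjusted p = 8.4e-14), and it was 1.40 at 3 days and 1.505 at 6 days when fitted apart.

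The other 6 were SDF2L1, an endoplasmic reticulum protein (1.69 ± 0.28), the mitochondrial ribosomal proteins MRPL36 (1.57 ± 0.22) and MRPS2 (1.37 ± 0.17), ENDOG, a mitochondrial nuclease (1.497 ± 0.26), RRAGA, a GTPase that signals amino acids to mTORC1 (1.45 ± 0.15), and HPDL (1.45 ± 0.33). RRAGA, a single-exon gene, had 16.8 and 16.3 CPM with DMSO against 49 and 51.8 with STM2457 after 3 days, and 15.3 and 17.4 against 42 and 38.7 after 6 days. Its STM2457 libraries lay close together and far above the DMSO ones. HPDL had 2.05 and 3.75 CPM with DMSO against 18.2 and 16.9 with STM2457 after 3 days, and 10.6 and 7.11 against 11.6 and 11.4 after 6 days, so that its gap was wide after 3 days and narrow after 6. ENDOG shares 40.1% of its exon bases with SPOUT1 on the other strand, and since no strand setting is stated its counts are uncertain.

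**Figure D2:**
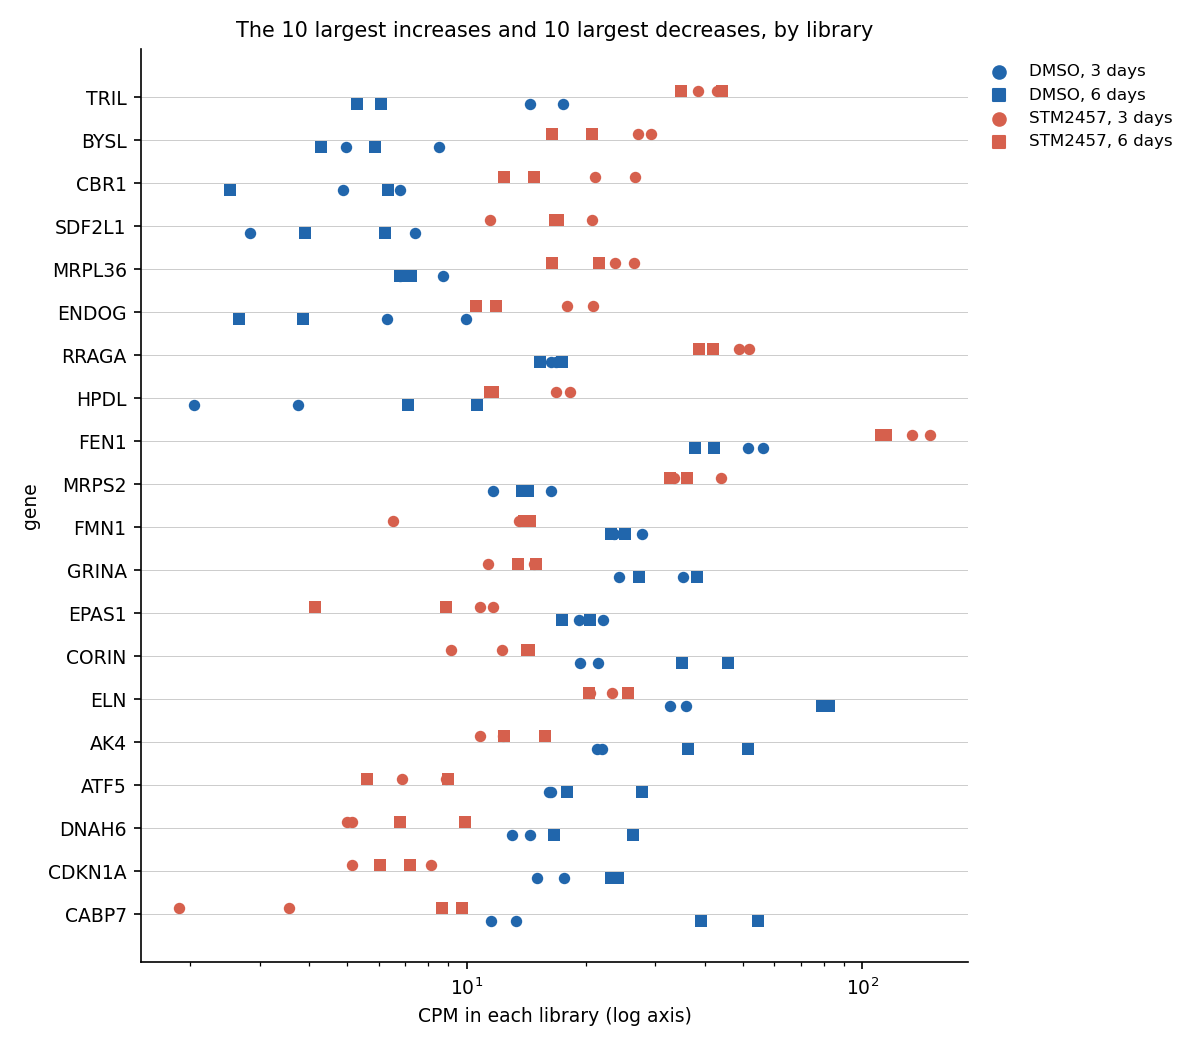
CPM (log axis) of the 10 genes with the largest increase and the 10 with the largest decrease in each of the 8 libraries, DMSO in blue and STM2457 in red, circles for 3 days and squares for 6 days. In each of the 20 genes the colours do not overlap, which the rule that chose them required; CABP7 and ELN also differ between the durations.

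By the same rule the largest decrease was that of CABP7 (chr22:29720003-29731833), a neuronal calcium-binding protein, with 13.3 and 11.5 CPM with DMSO against 1.87 and 3.56 with STM2457 after 3 days, and 39.2 and 54.4 against 8.65 and 9.75 after 6 days. It was lower with STM2457 at both durations, although the DMSO level itself was higher after 6 days, and its change was -2.28 ± 0.22 (SE, adjusted p = 7.2e-10). It shares 12.0% of its exon bases with ZMAT5 on the other strand. CDKN1A (chr6:36676460-36687339), the p21 inhibitor of cyclin-dependent kinases and a target of p53, had 17.6 and 15.1 CPM with DMSO against 5.13 and 8.11 with STM2457 after 3 days, and 24.2 and 23.1 against 7.19 and 6.03 after 6 days. The 4 STM2457 libraries lay below all of the DMSO ones, and the change was -1.57 ± 0.23 (SE, adjusted p = 5.8e-06). EPAS1 (chr2:46293667-46386697), which encodes the hypoxia-inducible factor HIF-2α, had 22.1 and 19.2 CPM with DMSO against 11.7 and 10.8 with STM2457 after 3 days, and 20.6 and 17.4 against 4.15 and 8.87 after 6 days, a change of -1.21 ± 0.24 (SE, adjusted p = 0.00034). AK4 (chr1:65147549-65232145), a mitochondrial adenylate kinase, had 21.4 and 22 CPM with DMSO against 10.8 and 12.4 with STM2457 after 3 days, and 51.6 and 36.3 against 15.8 and 12.4 after 6 days, a change of -1.27 ± 0.19 (SE, adjusted p = 5.3e-06). ELN (chr7:74027789-74069907), which encodes elastin, had 35.9 and 32.8 CPM with DMSO against 20.6 and 23.3 with STM2457 after 3 days, and 82.6 and 79.4 against 20.3 and 25.6 after 6 days. Its STM2457 libraries were alike at both durations while its DMSO libraries were not, and the pooled change was -1.24 ± 0.17 (SE, adjusted p = 1.1e-06).

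The other 5 were DNAH6, an axonemal dynein chain (-1.40 ± 0.24), ATF5, a transcription factor of the amino acid response (-1.35 ± 0.24), CORIN, a membrane serine protease (-1.22 ± 0.19), GRINA (-1.19 ± 0.18) and FMN1, a formin that nucleates actin (-1.05 ± 0.21). Part of the exon sequence of ATF5 (19.5%) overlaps NUP62 and part of that of GRINA (12.8%) overlaps PARP10, each on the other strand, and their counts are uncertain to that extent. All 20 genes of both groups kept their call when any 1 library was left out. Under ERCC scaling their directions held as well, with changes from -1.96 for CABP7 to 2.35 for TRIL. Some missed the threshold elsewhere. In other NGP libraries, after 3 h of actinomycin D, all 20 had the same sign. There CBR1 (0.41), SDF2L1 (0.70), ENDOG (0.52), HPDL (0.33), EPAS1 (-0.65) and GRINA (-0.52) did not pass. With the durations fitted apart, HPDL (0.38) and FMN1 (-0.76) did not pass at 6 days, nor ELN (-0.64) at 3 days.

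Genes of the amino acid response fell more often than they rose. In this response a lack of amino acids, or another stress, leads to translation of ATF4, which induces amino acid transporters, synthesis enzymes and tRNA synthetases through a composite element that it shares with C/EBP proteins. Of 31 tested members of the 35 listed (34 are in the files), 10 fell and 1 rose, with a median of -0.39 on the log2 scale against 0 for all genes. ATF4 itself had 154 and 156 CPM with DMSO against 89.7 and 87.5 with STM2457 after 3 days, and 212 and 234 against 173 and 150.3 after 6 days. It was lower within each duration, although the 3 day DMSO and 6 day STM2457 libraries overlapped, and its change was -0.63 ± 0.09 (SE, adjusted p = 1e-06). SHMT2, the mitochondrial serine hydroxymethyltransferase, had 325 and 323 CPM with DMSO against 245 and 240.2 with STM2457 after 3 days, and 353 and 356 against 242 and 247 after 6 days, and its groups did not overlap (-0.48 ± 0.07 (SE, adjusted p = 1.3e-06)). MTHFD2, the next enzyme of the mitochondrial folate pathway, changed by -0.44 ± 0.07 (SE, adjusted p = 1.7e-05), but 27.5% of its exon bases are shared with SLC4A5 on the other strand. ASNS, asparagine synthetase (-0.49 ± 0.09), PHGDH, the first enzyme of serine synthesis (-0.27 ± 0.07), SLC7A11, the cystine transporter (-1.01 ± 0.28), SLC6A9, a glycine transporter (-1.53 ± 0.46), ALDH1L2 (-0.39 ± 0.11) and STC2 (-0.96 ± 0.22) fell as well. CEBPG, a partner of ATF4, was the member that rose (0.62 ± 0.12). SESN2 (-1.94), CHAC1 (-1.10) and DDIT3 (-0.93) had large negative values that did not pass, and ATF3 (0.73) and TRIB3 (0.58) positive ones that did not.

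Most of the cytosolic tRNA synthetases, which charge tRNAs with their amino acids, fell. All 20 listed were tested, 15 fell and none rose, with a median of -0.27. Without DMSO replicate 2 or STM2457 replicate 1 of 3 days 8 were called lower, without STM2457 replicate 2 of 3 days 9, and in the 6 day libraries alone 4. IARS1, for isoleucine, had 503 and 483 CPM with DMSO against 332 and 356 with STM2457 after 3 days, and 443 and 405 against 312 and 309 after 6 days. Its groups did not overlap, and the change was -0.48 ± 0.06 (SE, adjusted p = 3.4e-07). AARS1 for alanine changed by -0.40 ± 0.08, KARS1 for lysine by -0.37 ± 0.07 and MARS1 for methionine by -0.36 ± 0.07. HARS1 (0.15) and SARS1 (0.16) had positive values that did not pass. Under ERCC scaling the medians were -0.068 for the amino acid response and 0.045 for the synthetases, against 0.31 for all genes, so that both lists then lay below the typical gene. On that scale 5 amino acid response genes were called higher and 4 lower, and 2 synthetases higher and none lower.

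The composite element searched for was TGATGNAA, or TTNCATCA on the other strand, in the 300 bases around each gene's start (250 before and 50 after, RefSeq, GRCh38.p14). It was present in 310 of 10846 tested genes with a promoter entry (2.86%), in 9 of 26 genes of the amino acid response (34.6%) and in 7 of 16 synthetases (43.8%). The element was present in 19 of 600 genes called lower with an entry (3.17%) and in 11 of 563 called higher (1.95%), so over all called genes its share was near that of all genes. Among members called lower with an entry, 1 of 7 amino acid response genes (14.3%) and 6 of 11 synthetases (54.5%) held it. Stretches of 4 genes that fell and hold the element are shown because both lists are known for it, with the match in capitals, 5′ to 3′ along the gene, the chromosome strand named, and positions in GRCh38.p14.
ASNS (chr7:97872439-97872506, reverse strand): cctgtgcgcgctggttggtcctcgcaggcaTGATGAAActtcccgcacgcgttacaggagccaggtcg
IARS1 (chr9:92293673-92293740, reverse strand): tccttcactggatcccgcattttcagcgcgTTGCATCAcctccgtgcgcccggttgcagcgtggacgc
AARS1 (chr16:70289656-70289723, reverse strand): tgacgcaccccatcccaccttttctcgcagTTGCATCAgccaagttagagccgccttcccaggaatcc
GARS1 (chr7:30594815-30594882, forward strand): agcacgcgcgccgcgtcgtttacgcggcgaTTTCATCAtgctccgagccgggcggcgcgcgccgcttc
In ASNS the match begins at position -68 from the annotated start, in IARS1 at -13, in AARS1 at -187 and in GARS1 at -33. A match of letters is a description and shows no binding in these cells.

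Ribosomal protein mRNAs, which are abundant and long-lived, were lower in nearly every case. All 78 were tested, 62 fell and 1 rose, and 73 had a negative value, with a median of -0.25. RPL5, a protein of the large subunit that also binds 5S RNA, had 2202 and 2174 CPM with DMSO against 1561 and 1553 with STM2457 after 3 days, and 3124 and 3080.5 against 2175 and 2153 after 6 days. The levels were higher after 6 days in both arms, and STM2457 lowered them by about the same step at each duration (-0.48 and -0.52). The pooled change was -0.51 ± 0.04 (SE, adjusted p = 1.3e-12). RPS7 had 1295 and 1279.6 CPM with DMSO against 963 and 858 with STM2457 after 3 days, and 1564 and 1615 against 1172 and 1128 after 6 days (-0.48 ± 0.05 (SE, adjusted p = 1.1e-09)), RPL23 changed by -0.49 ± 0.05 and RPL7A by -0.45 ± 0.05, and these 3 did not overlap between arms. In 9 of the 78 all STM2457 libraries lay below all DMSO ones, and in 1 above, against 4.14% and 5.39% of all genes tested. RPL41 was the member that rose (0.22 ± 0.07). The step was small, and it was measured at many fragments: the fewest for RPL5 in a library were 24280. Ribosomal protein genes have many near-identical copies in the genome and the handling of fragments with several alignments is not stated, so single members are less certain than the shared direction. With ERCC scaling the median was 0.067, 9 members were called higher and 2 lower, against 28.6% higher and 0.718% lower of all genes, so the fall holds relative to the typical gene and not on the spike-in scale.

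Messages for ribosomal proteins are known to begin with a 5′ terminal oligopyrimidine tract, a C followed by a run of C and T, through which mTORC1 controls their translation. A C with at least 4 pyrimidines after it, within 5 bases of the annotated start, was present in 53 of 62 ribosomal protein genes with an entry (85.5%) and in 29.9% of all 10846 promoters. Short stretches around the start are shown for 3 that fell, from 40 bases before the annotated start to 24 after it. Capitals mark the run from its first C within 5 bases of the start. Pyrimidines that stand before that C are in lower case.
RPS7 (chr2:3575220-3575284, forward strand): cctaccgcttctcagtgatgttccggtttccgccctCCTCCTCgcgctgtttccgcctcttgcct
RPL7A (chr9:133348178-133348242, forward strand): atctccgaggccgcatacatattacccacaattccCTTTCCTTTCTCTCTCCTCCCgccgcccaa
RPL24 (chr3:101686694-101686758, reverse strand): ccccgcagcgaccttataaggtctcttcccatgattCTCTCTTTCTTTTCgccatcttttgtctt
Among the other genes, those with such a tract were lower in 184 of 3186 cases (5.78%) and higher in 154 (4.83%). Those without one were lower in 368 of 7598 (4.84%) and higher in 408 (5.37%). Outside the ribosomal proteins the tract thus went with little difference in either share.

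Glycolysis and hypoxia genes were lower too, with 14 of 30 down, none up and a median of -0.38. ALDOC, an aldolase of neural cells, had 25.4 and 17.6 CPM with DMSO against 11 and 10.1 with STM2457 after 3 days, and 114 and 105 against 20.2 and 30.9 after 6 days. Its DMSO level was much higher after 6 days, and there the gap to STM2457 was widest (-2.11 against -1.01 at 3 days, pooled -1.60 ± 0.17 (SE, adjusted p = 1.5e-08)). ENO1, enolase, had 3554 and 3447 CPM with DMSO against 2755 and 2785 with STM2457 after 3 days, and 4854 and 4963 against 3138 and 2995 after 6 days, with no overlap (-0.51 ± 0.04 (SE, adjusted p = 5.4e-11)). LDHA, lactate dehydrogenase, had 536 and 578 CPM with DMSO against 423 and 414 with STM2457 after 3 days, and 682 and 578 against 394 and 396 after 6 days (-0.54 ± 0.06 (SE, adjusted p = 6.6e-08)). ALDOA (-0.94 ± 0.14), PGK1 (-0.48 ± 0.07), PKM (-0.38 ± 0.05) and GAPDH (-0.30 ± 0.04) are other glycolytic enzymes that fell, and NDRG1 (-0.72 ± 0.23), BNIP3 (-0.68 ± 0.11) and PDK1 (-0.43 ± 0.13) are hypoxia-induced genes that did. SLC2A1, the main glucose transporter, did not pass (-0.02). With ERCC scaling the median was -0.071 against 0.31 for all genes, with 5 lower and 1 higher, and GAPDH was then at 0.01.

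The mitochondrially encoded mRNAs went the other way: 9 of 13 rose, none fell, and the median was 0.21. The rise was larger after 6 days, with a median of 0.43 and 8 higher there, against 0.085 with 6 higher and 1 lower after 3 days, and 7 of the 13 passed the test of the difference between durations. DESeq2 called 6 of the 13, and without STM2457 replicate 2 of 6 days edgeR called 5. They are made by a polymerase of the mitochondrion from its own genome. MT-ND2, a subunit of complex I, had 591 and 649 CPM with DMSO against 970.2 and 999.6 with STM2457 after 3 days, and 1055 and 973 against 1713 and 1953 after 6 days. Both durations showed the rise, and the change was 0.76 ± 0.05 (SE, adjusted p = 8.4e-14). MT-ND3 had 90.6 and 117 CPM with DMSO against 150.1 and 132 with STM2457 after 3 days, and 154 and 137 against 259 and 252 after 6 days (0.63 ± 0.09 (SE, adjusted p = 2.8e-06)), MT-CYB changed by 0.42 ± 0.04 and MT-CO2 by 0.34 ± 0.04, the last 2 without overlap. The members were not alike, since MT-CO1 (0.03) and MT-ND4 (-0.01) did not pass. The share of all fragments on mitochondrial genes was 4.02 ± 0.33% with DMSO and 4.66 ± 0.60% with STM2457 (SD, n = 4 each, exact two-sided permutation test that ignores duration, p = 0.143). Nuclear copies of mitochondrial sequence exist, so fragments may be split between them.

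METTL3, whose enzyme the compound blocks, did not pass at the RNA level with TMM scaling. With ERCC scaling it was at 0.54 and passed as higher (edgeR, adjusted p = 0.0011), where the median of all genes was 0.31. It had 64.8 and 54.6 CPM with DMSO against 64.7 and 66.4 with STM2457 after 3 days, and 50.9 and 41.7 against 60.9 and 54.7 after 6 days (0.23 ± 0.12 (SE, adjusted p = 0.245)). Of 20 tested genes for m6A writers, erasers and readers (21 listed), 6 rose and 2 fell, with a median of 0.19. ALKBH5, an m6A demethylase, had 88.6 and 83.7 CPM with DMSO against 141 and 136 with STM2457 after 3 days, and 101 and 90.5 against 138 and 135 after 6 days, with no overlap between the arms (0.59 ± 0.09 (SE, adjusted p = 5.3e-06)). The writer partners RBM15B (18.6 and 19.2 CPM with DMSO against 46.5 and 41.2 with STM2457 after 3 days, and 17 and 23.7 against 30.1 and 36.1 after 6 days) and VIRMA also rose, by 0.96 ± 0.16 and 0.64 ± 0.11, and so did FTO (0.35 ± 0.08), METTL14 (0.50 ± 0.13) and RBM15 (0.36 ± 0.11). RBM15B shares 20.0% of its exon bases with DCAF1 on the other strand. IGF2BP1 (-0.21 ± 0.05), a reader that stabilises its targets, and HNRNPC (-0.20 ± 0.05) fell. The readers YTHDF1, YTHDF2, YTHDF3 and YTHDC1 did not pass, with values from -0.11 to 0.32. Neither fall was called without STM2457 replicate 2 of 3 days.

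Among 37 genes of mRNA decay, 4 rose and 1 fell, with a median of -0.02. Without STM2457 replicate 1 of 3 days, DMSO replicate 1 of 6 days or STM2457 replicate 2 of 6 days, 2 were called higher. EXOSC4, a subunit of the RNA exosome, had 2.58 and 4.17 CPM with DMSO against 13.6 and 10.9 with STM2457 after 3 days, and 0.91 and 3.42 against 8.94 and 11.6 after 6 days, low counts but no overlap (2.06 ± 0.36 (SE, adjusted p = 7.3e-05)). CNOT8, a deadenylase of the CCR4-NOT complex, rose (0.63 ± 0.12), as did EDC3 (0.43 ± 0.12), while the scaffold of that complex, CNOT1, fell (-0.22 ± 0.06). The call of CNOT1 was lost in 6 of the 8 refits that left out 1 library and that of EDC3 in 4, and on the ERCC scale CNOT1 was at 0.09.

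MYCN, the amplified oncogene, had 517 and 514 CPM with DMSO against 577 and 537 with STM2457 after 3 days, and 776 and 830.4 against 749 and 811 after 6 days. Its levels were higher after 6 days in both arms, and with TMM scaling it did not pass (0.03 ± 0.06 (SE, adjusted p = 0.791)). With ERCC scaling it was at 0.35 and passed as higher (edgeR, adjusted p = 0.00031), where the median of all genes was 0.31. Of the 18 adrenergic transcription factors, MYCN among them, 4 rose and none fell, with a median of 0.03. HAND2 had 360.0 and 333 CPM with DMSO against 505 and 522 with STM2457 after 3 days, and 333 and 337 against 383 and 413 after 6 days, with the STM2457 libraries above all DMSO ones (0.41 ± 0.07 (SE, adjusted p = 2.4e-05)). TFAP2B rose by 0.76 ± 0.13 and SOX11 by 0.19 ± 0.06, the latter losing its call in 5 of 8 refits without 1 library. PHOX2A (-0.44) and GATA3 (-0.26) had negative values that did not pass.

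Genes for catecholamine synthesis and storage had 2 of 13 higher and none lower (14 listed; median 0.03). CHGA, a protein of secretory granules, had 939.7 and 873 CPM with DMSO against 1224 and 1227 with STM2457 after 3 days, and 811 and 821 against 1159.9 and 1180.2 after 6 days, with no overlap (0.48 ± 0.05 (SE, adjusted p = 1.9e-09)). DBH, which makes noradrenaline, rose by 0.31 ± 0.09, and its call was lost without DMSO replicate 1 or STM2457 replicate 2 of 6 days. Of 27 genes of the neuronal cytoskeleton and synapse, 3 rose and 1 fell (median -0.05). NEFL, the light neurofilament, had 65.5 and 70.5 CPM with DMSO against 110.2 and 132 with STM2457 after 3 days, and 63.1 and 72.3 against 110.5 and 113 after 6 days (0.78 ± 0.10 (SE, adjusted p = 2.1e-07)). TUBB2B, a tubulin, rose by 0.49 ± 0.09 and MAP1B by 0.24 ± 0.04, while STMN2, a growth cone protein, fell (-0.34 ± 0.06).

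Receptors went in both directions. Of 15 tested neurotrophic receptors and relatives (17 listed), 3 rose and 2 fell. ALK, a receptor tyrosine kinase often mutated in neuroblastoma, had 143 and 143 CPM with DMSO against 179 and 206 with STM2457 after 3 days, and 43.1 and 36.5 against 109 and 101 after 6 days. Within each duration the STM2457 libraries were higher, and the pooled change was 0.90 ± 0.12 (SE, adjusted p = 6.5e-07). GFRA2, a co-receptor for neurturin, rose by 0.57 ± 0.15, and RET by 0.37 ± 0.11, and without STM2457 replicate 2 of 3 days only 1 receptor was called higher and GFRA2 did not pass. ERBB4 (-0.74 ± 0.13) and NGFR, the low-affinity neurotrophin receptor (-0.54 ± 0.12), fell, with most of the gap after 3 days. Of 41 axon guidance genes (44 listed), 4 rose and 5 fell: SLIT3, a repellent ligand (0.51 ± 0.06), NRP1 (0.63 ± 0.15), NRP2 (0.29 ± 0.07) and SEMA5A (0.85 ± 0.20) rose, and the semaphorin receptors PLXND1 (-0.35 ± 0.08), PLXNB2 (-0.43 ± 0.09), PLXNA3 (-0.63 ± 0.14) and PLXNA1 (-0.35 ± 0.08) fell, with ROBO1 (-0.26 ± 0.07).

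NOTCH1 had 29.9 and 27.9 CPM with DMSO against 11.2 and 13.1 with STM2457 after 3 days, and 59.5 and 56.7 against 28.5 and 16.6 after 6 days. It was lower at each duration (-1.31 ± 0.16 (SE, adjusted p = 2.1e-07)), and of 18 tested ID and Notch pathway genes (23 listed) 4 fell and none rose, with a median of -0.32. The other 3 were MFNG, a glycosyltransferase that modifies Notch (-0.56 ± 0.14), NUMB, a Notch antagonist (-0.39 ± 0.12), and the ligand DLL3 (-0.40 ± 0.13). NUMB lost its call in 5 of 8 refits without 1 library and DLL3 in 6, and 2 of the list were called without DMSO replicate 2 or STM2457 replicate 1 of 3 days or STM2457 replicate 2 of 6 days.

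Of the 9 mesenchymal-type markers tested (15 listed), 3 rose and none fell: TWIST1, a transcription factor of the neural crest, with 112 and 104 CPM with DMSO against 179 and 197 with STM2457 after 3 days, and 95.4 and 90.9 against 144 and 155 after 6 days (0.74 ± 0.08 (SE, adjusted p = 2.9e-08)), VIM, vimentin (0.47 ± 0.10), and FN1, fibronectin (0.36 ± 0.09). Most of the summed level given above is theirs. Of 30 collagens, laminins and integrins tested (33 listed), 5 fell and 2 rose, 15 values were positive and 15 negative, and the median was -0.04, near that of all genes. With ERCC scaling 9 were called higher and 2 lower. COL1A1, the main chain of type I collagen, had 100.3 and 104 CPM with DMSO against 66.1 and 69.7 with STM2457 after 3 days, and 189 and 186 against 73.4 and 78 after 6 days, with no overlap (-0.95 ± 0.11 (SE, adjusted p = 2.5e-08)). LAMA5, a laminin chain, had 13.2 and 12.2 CPM with DMSO against 5.28 and 7.06 with STM2457 after 3 days, and 58.5 and 68.3 against 26.3 and 26.3 after 6 days (-1.17 ± 0.17 (SE, adjusted p = 2.4e-06)). COL18A1 (-0.57 ± 0.10, sharing 18.5% of its exon bases with SLC19A1) and COL5A1 (-0.59 ± 0.15) fell as well, and COL5A1 lost its call without DMSO replicate 2 or either STM2457 library of 6 days. COL1A1 is also a fibroblast marker, and the summed level of those markers, taken without TMM scaling, overlapped between the arms.

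IGF2, an insulin-like growth factor of fetal tissue and of many tumours, had the smallest p of all genes. It had 1151 and 1291 CPM with DMSO against 708 and 721 with STM2457 after 3 days, and 3102 and 3325 against 1470.3 and 1571 after 6 days. Both durations showed it lower with STM2457, at -0.76 and -1.08, and the pooled change was -0.93 ± 0.05 (SE, adjusted p = 1.6e-16). The gene shares 70.7% of its exon bases with the readthrough gene AC132217.2 on the same strand, so its counts are uncertain. Of 17 tested IGF axis genes (22 listed), 5 fell and 1 rose, with IGFBPL1 (-0.37 ± 0.06), IGFBP5 (-0.32 ± 0.07), STC2 and IGF2BP1 among the lower ones. IGFBP3, a binding protein that sequesters IGFs, had 19.9 and 23.2 CPM with DMSO against 43.3 and 66.2 with STM2457 after 3 days, and 1.46 and 3.08 against 7.01 and 1.33 after 6 days. It was high with STM2457 after 3 days and at 1.33 to 7.01 CPM after 6 days, its pooled change was 1.21 ± 0.26 (SE, adjusted p = 0.0015), and the call was lost without STM2457 replicate 1 of 6 days.

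Cell cycle genes changed little when both durations were pooled. Of 26 genes of DNA replication and S phase, FEN1, MCM3 (0.38 ± 0.06) and RRM2 (0.21 ± 0.07) rose and MCM7 fell (-0.39 ± 0.06). Of 24 genes of G2 and mitosis, MKI67 (0.36 ± 0.07) and CENPF (0.23 ± 0.07) rose and UBE2C (-0.38 ± 0.11) and KIF23 (-0.41 ± 0.12) fell. The pooled values hide a difference between the durations, given below, and RRM2 and CENPF lost their call without any 1 of the 4 libraries of 6 days, UBE2C without DMSO replicate 1 or either STM2457 library of 3 days, and KIF23 in 4 of the 8 refits without 1 library. Of 23 tested p53 targets (24 listed), CDKN1A fell, TP53I3 (1.05 ± 0.15) and MDM2 rose, and 20 did not pass (median 0.07). MDM2, the ubiquitin ligase of p53, had 1067 and 1102 CPM with DMSO against 1368 and 1359 with STM2457 after 3 days, and 1001 and 1017 against 1221 and 1188 after 6 days, with no overlap (0.29 ± 0.05 (SE, adjusted p = 1.3e-05)). Of 24 immediate early and short-lived genes tested (30 listed), 2 rose and none fell: SOX12, with 61.2 and 62.1 CPM with DMSO against 178 and 185 with STM2457 after 3 days, and 83.1 and 82.8 against 147 and 145 after 6 days (1.19 ± 0.10 (SE, adjusted p = 9.5e-11)), and JUND (1.18 ± 0.18), both single-exon genes.

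**Figure D3:**
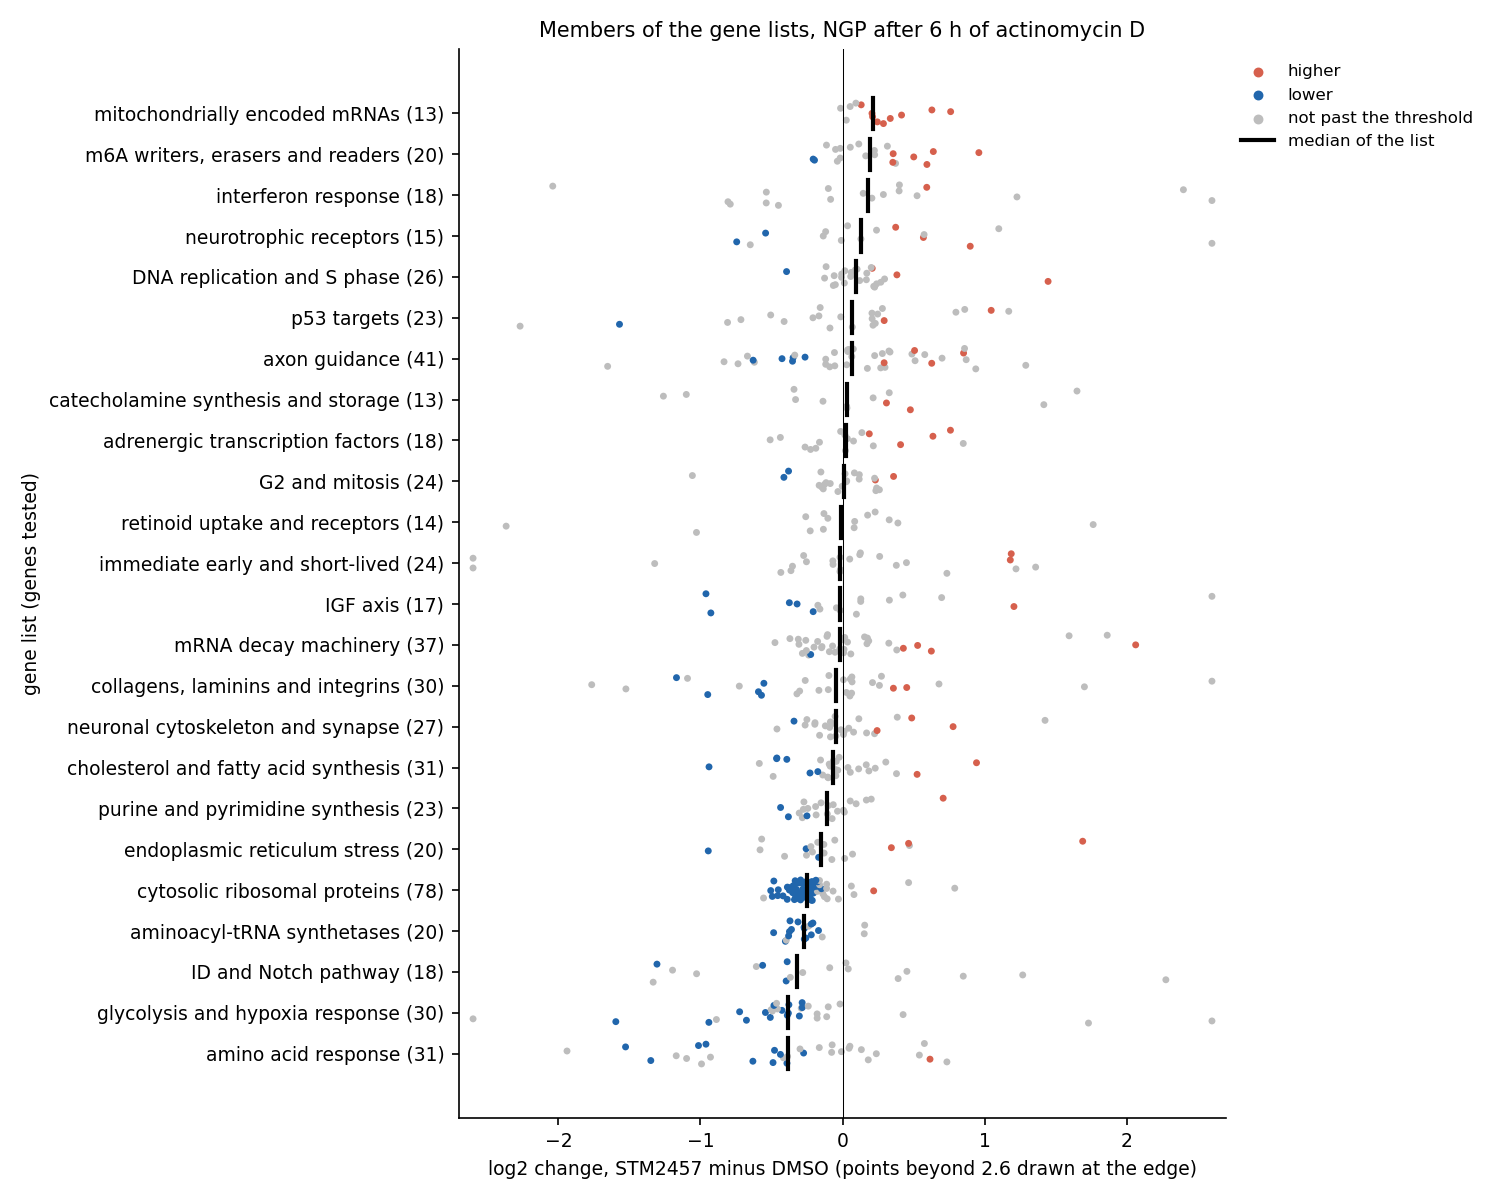
Log2 change, STM2457 minus DMSO, of each tested member of the 24 gene lists, with called members in red (higher) or blue (lower) and the list's median as a black bar. The ribosomal protein, tRNA synthetase, glycolysis and amino acid response lists lie left of 0 with many blue members, and the mitochondrially encoded mRNAs lie right of it.

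The genes that rose had fewer exons than those that fell. Overlapping exons of a gene were merged into separate blocks, and the median number of blocks was 8 among the 697 higher genes, 14 among the 750 lower genes and 11 among all tested. Of 365 genes with 1 block, 12.9% rose and 1.10% fell. Of 445 genes with 2 blocks, 8.31% rose and 3.37% fell. The shares were 6.78% and 4.39% with 3 to 5 blocks, 6.00% and 4.93% with 6 to 10, and 3.60% and 6.45% among the 7175 genes with 11 or more. The median change went from 0.22 with 1 block over 0.19, 0.09 and 0.02 to -0.04 with 11 or more. The single-block genes RRAGA, HPDL, SOX12, JUND, RBM15B, SOX11 and TRIL described above belong to the first class.

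Level moved with the class, from a median of 6.13 CPM with 1 block to 30.1 CPM with 11 or more, while the number of genes detected per library, given above, moved with the treatment. In the subset whose mean reached 10 CPM the share of higher genes went down over the classes again, from 28.9% of 142 single-block genes over 14.9, 12.3 and 9.20% to 4.78% of 5124 genes with 11 or more. The share of lower genes had no such order there: it was 2.82% with 1 block and 8.62, 8.96, 7.79 and 8.53% in the other classes. In the 6 day libraries alone, where the gap in detected genes was smaller, the medians went from 0.18 to -0.04. In the NGP libraries after 3 h of actinomycin D, which share none with these, they went from 0.14 to -0.04, and there the numbers of detected genes were 13665 to 14236 over both arms. The part of level and of the detected genes in this order was not tested beyond these values. GGACT, a common form of the m6A consensus, showed no such order: over 5 equal classes of genes by GGACT per kilobase of exon, 4.76 to 5.54% were higher, and 6.04% in the lowest and 3.78% in the highest class were lower.

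**Figure D4:**
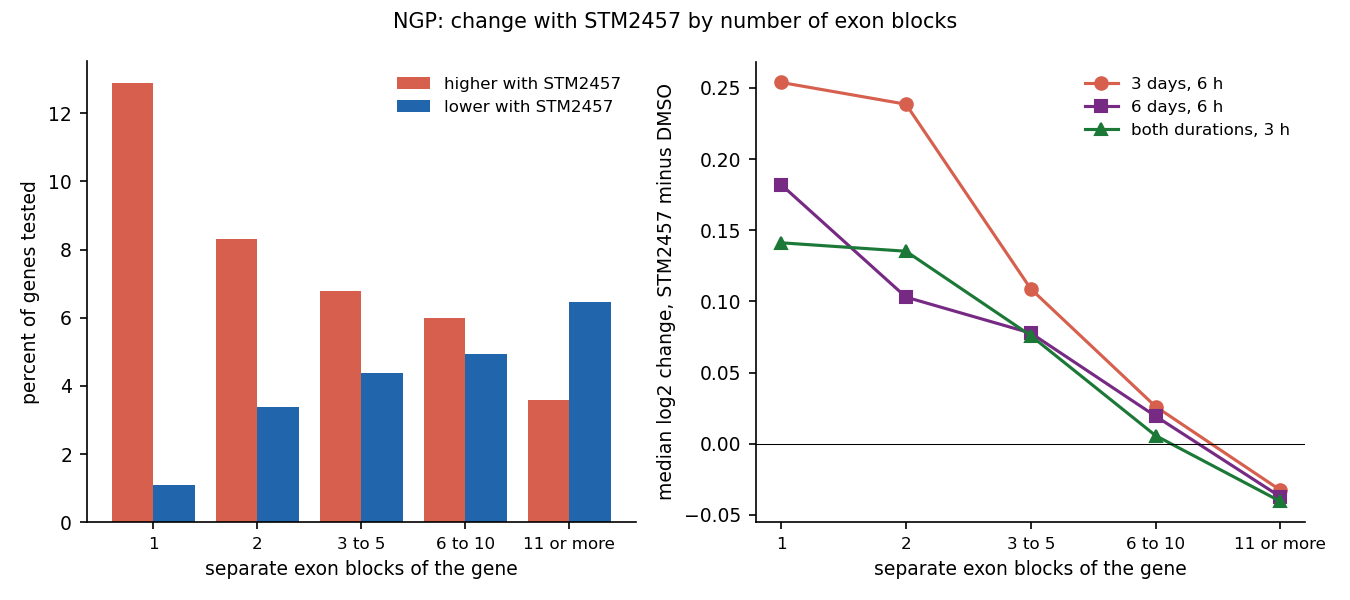
Left, percent of tested genes called higher (red) or lower (blue) with STM2457 by the number of separate exon blocks of the gene; right, the median log2 change in the 3 day and 6 day libraries at 6 h and in the libraries at 3 h. The share of higher genes goes down and that of lower genes up from 1 block to 11 or more, and the 3 lines of medians share that order.

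Genes called in the pooled comparison mostly had the same sign at the 2 durations. Of the 697 higher genes 688 had a positive value at both durations when fitted apart, and of the 750 lower genes 746 had a negative one at both. The calls were made on these same libraries, which favours such agreement, so it is no test of a shared effect. The 3 day libraries alone gave 568 higher (4.42%) and 713 lower (5.55%) of 12837 genes, and the 6 day libraries alone gave 376 higher (2.93%) and 415 lower (3.23%) of 12850. In the 6 day libraries 48 ribosomal protein genes, 16 glycolysis and hypoxia genes, 7 amino acid response genes and 1 ID and Notch pathway gene were called lower. Of the adrenergic transcription factors none was called higher and 1 lower there, against 4 and none in the 3 day libraries.

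The test of the difference itself, 6 days minus 3 days, found 226 of 13649 genes (1.66%), of which 160 had the larger value at 6 days (1.17%) and 66 the larger at 3 days (0.484%). Of the 24 genes of G2 and mitosis 12 were among the 226. Their median was -0.27 at 3 days and 0.36 at 6 days. CENPF, a kinetochore protein, had 2038 and 2020.4 CPM with DMSO against 1908 and 1898 with STM2457 after 3 days, and 1259 and 1179 against 1827 and 1758 after 6 days. With DMSO its level was lower after 6 days than after 3, while with STM2457 it stayed near the 3 day level, and the difference between the effects was 0.65 ± 0.06 (SE, adjusted p = 9e-14). MKI67 (0.52) and RRM2 (0.51) differed in the same sense.

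WDR74, a factor of ribosome assembly, had 593 and 676 CPM with DMSO against 406 and 446 with STM2457 after 3 days, and 438 and 383 against 596 and 511 after 6 days. The direction turned between the durations, with -0.56 at 3 days and 0.43 at 6 days, a difference of 1.01 ± 0.10 (SE, adjusted p = 2.9e-12). ACTG1, cytoplasmic actin, had 3506 and 3390.0 CPM with DMSO against 3382 and 3491 with STM2457 after 3 days, and 4988 and 5242 against 3761 and 3822 after 6 days, with a change of 0.01 at 3 days and -0.43 at 6 days, a difference of -0.43 ± 0.04 (SE, adjusted p = 5.5e-12). ALK differed by 0.97, and the matrix genes COL1A1 (-0.72) and COL5A1 (-1.07) by more of a decrease at 6 days. The number of such genes went to 136, 119, 116 and 107 without one of the 4 STM2457 libraries in turn (replicates 1 and 2 of 3 days, then of 6 days).

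After 3 h of actinomycin D the same contrast in NGP, in 8 other libraries, called 1307 of 13498 genes (9.68%), 604 higher (4.47%) and 703 lower (5.21%). Of the genes higher at 6 h, 342 were called higher at 3 h, which is 49.1% of the 697 and 56.6% of the 604. Of those lower at 6 h, 393 were called lower at 3 h, 52.4% of the 750 and 55.9% of the 703. None was called in the opposite direction. Among those tested at 3 h, 668 of 693 higher genes and 718 of 749 lower ones had the same sign. Some lists had most of their calls on the same side at 3 h as at 6 h, with 58 ribosomal protein genes lower and 1 higher, 14 synthetases lower, 8 glycolysis and hypoxia genes lower and 7 mitochondrial mRNAs higher. Others did not: the mRNA decay genes had 1 higher and 2 lower at 3 h, the catecholamine genes 2 and 2, and the median of the neurotrophic receptors was -0.13 at 3 h against 0.13 at 6 h. The amino acid response had 18 members lower at 3 h and a median of -0.90. ATF5 was at -2.88 at 3 h and -1.35 ± 0.24 at 6 h, while ATF4 was at -0.08, which did not pass, and -0.63 ± 0.09. Without STM2457 replicate 1 of 6 days, 865 genes were called at 3 h.

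The test of the difference between the effects at 6 h and 3 h called 0 of 14264 genes by edgeR (0%), with 853 at an unadjusted p under 0.05, and DESeq2 called 12. Without DMSO replicate 1 of 3 days at 3 h edgeR called 12, and without STM2457 replicate 1 of 3 days at 3 h it called 7. A miss of the threshold does not show that the effects are equal. The medians over the higher and lower genes of the 6 h comparison were 0.53 and -0.38 at 6 h and 0.34 and -0.27 at 3 h, and the genes were chosen at 6 h.

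The spike-in scale gave another picture of the total. The ERCC share at 6 h was 0.410 and 0.431% with DMSO against 0.374 and 0.377% with STM2457 after 3 days, and 0.589 and 0.594% against 0.461 and 0.462% after 6 days. It was lower with STM2457 within each duration, with a mean of 0.506 ± 0.099% against 0.418 ± 0.050% (SD, n = 4 each; exact two-sided permutation test that ignores duration, p = 0.171). At 3 h the shares were 0.336 and 0.333% with DMSO against 0.364 and 0.369% with STM2457 after 3 days, and 0.401 and 0.426% against 0.397 and 0.397% after 6 days. Scaled to the spike-ins, the median gene was higher with STM2457 by 0.31 at 6 h and by -0.01 at 3 h, and the test of the difference between 6 h and 3 h called 1032 genes, all of them with the larger value at 6 h. The labels do not say when the spike-ins were added or to how much RNA, so whether this scale follows RNA per cell was not tested. The changes of IGF2 (-0.61), CDKN1A (-1.26), ALDOC (-1.28) and NOTCH1 (-0.99) kept their sign on it, and those of FADS1 (0.09), HSP90B1 (0.06), ATIC (0.07), CNOT1 and GAPDH turned without passing. Other named genes lost their call on this scale, as counted below.

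**Figure D5:**
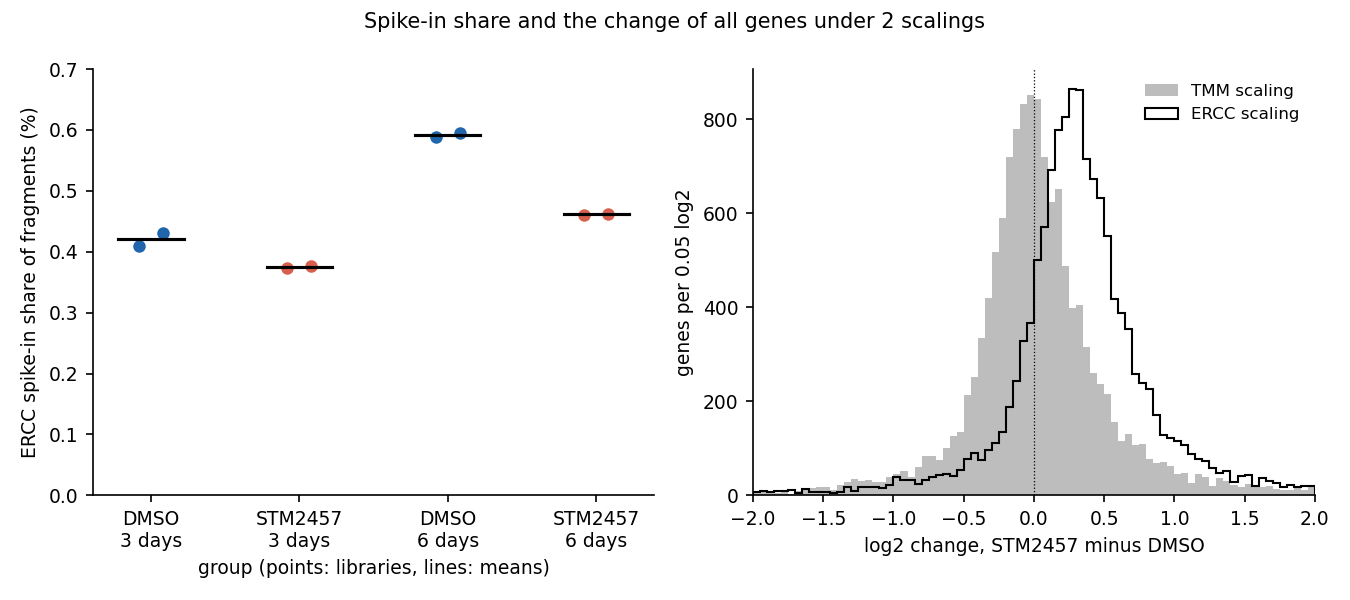
Left, the share of fragments on ERCC spike-ins in each library (points) with the group means (lines), DMSO in blue and STM2457 in red; right, the number of genes by log2 change with TMM scaling (grey) and with ERCC scaling (black line). The share is lower with STM2457 at each duration, and the median of all genes moves from 0 to 0.31 on the spike-in scale.

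Kelly, the other MYCN-amplified neuroblastoma line of the series, was treated in the same way, and a joint fit of the 8 NGP and 8 Kelly libraries at 6 h tested whether the effect of STM2457 differed. Of 16283 genes, 49 passed (0.301%), 25 with the larger value in NGP and 24 with the larger in Kelly. FAM49A, a regulator of actin signalling, had 127 and 131 CPM with DMSO against 86.1 and 79.2 with STM2457 after 3 days, and 339 and 321 against 173 and 172 after 6 days in NGP. In Kelly it had 64.9 and 88.5 CPM with DMSO against 145 and 148 with STM2457 after 3 days, and 116 and 142 against 168 and 176 after 6 days. It was thus lower with STM2457 in NGP and higher in Kelly in all 4 libraries of each arm within a duration, with a difference of -1.46 ± 0.15 (SE, adjusted p = 3.5e-07). MT-ND1, a complex I subunit, had 505 and 482 CPM with DMSO against 339 and 337 with STM2457 after 3 days, and 601 and 615 against 396 and 403 after 6 days in Kelly and 1589.8 and 1760.0 CPM with DMSO against 1638 and 1650.0 with STM2457 after 3 days, and 1905 and 1810.3 against 2436 and 2611 after 6 days in NGP. The Kelly libraries with STM2457 lay below all of their DMSO libraries, and the difference was 0.79 ± 0.09 (SE, adjusted p = 7.3e-06). DBH had 2172 and 2134 CPM with DMSO against 1549.9 and 1628 with STM2457 after 3 days, and 2053 and 2035 against 1683 and 1515 after 6 days in Kelly, against 116 and 129 CPM with DMSO against 136 and 136 with STM2457 after 3 days, and 110.4 and 122 against 147 and 173 after 6 days in NGP, a difference of 0.71 ± 0.09 (SE, adjusted p = 2.9e-05). Of the other genes described above, TFAP2B (1.03), TWIST1 (0.77), MT-ND2 (0.70) and MT-ND3 (0.91) had the larger value in NGP, and ELN (-1.64), EPAS1 (-1.13), LAMA5 (-0.97), IGFBP5 (-0.73) and DNAH6 had the smaller. Among the 49 were 4 genes of catecholamine synthesis and storage and 3 mitochondrial mRNAs. The amino acid response, glycolysis and hypoxia, adrenergic transcription factor, IGF axis, and collagen, laminin and integrin lists had 1 each, and the ribosomal protein, tRNA synthetase and m6A lists none.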

How the data were processed

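Per the file headers, the authors counted fragments with featureCounts 1.5.3, summing exons under each gene name of the protein-coding set of GENCODE release 33 (19923 names) plus 92 ERCC sequences, and the deposited counts are whole and not normalized. Strand, multiple alignments and overlapping genes are not mentioned there. The submitters' processing notes give GRCh38 (hg38) and name HISAT2 2.1.0, Subread 1.5.3, Trimmomatic 0.36 and FastQC 0.11.5. Libraries were made from bead-selected poly(A) RNA with a SMART cDNA kit, per the labels' protocols.

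The tests used edgeR 4.0.16 (R 4.3.3; quasi-likelihood test, TMM, filterByExpr by group with minimum count 10 and minimum total 15, Benjamini-Hochberg, threshold 0.05). SE is the absolute log2 change over the square root of F. The fitting code was tested on simulated data. Single library values were compared by exact permutation that ignores duration in scipy 1.17.1. Alternatives were RLE, library size, ERCC scaling, no filter, DESeq2 1.42.0, limma-voom (limma 3.58.1), single durations, 3 h and 6 h in 1 fit, the replicate number as a block, and leaving out each library. The comparison, the 24 gene lists and 6 marker lists were chosen with earlier results of these data known. Named genes were the 10 largest increases and decreases among calls with a mean of at least 10 CPM and no overlap, METTL3, MYCN, up to 4 called members of each list by smallest p, and the 3 genes of smallest p in each test of a difference; further list members are given as values. Gene positions are those of the file's annotation, exon blocks merge its exons, and exon sequence was read from hg38. Replicates of a group differed by more than counting noise, with a chi-square per gene of 9.08 to 21.4. Libraries of the series from before actinomycin D, and Kelly at 3 h, were not used. Values of some genes in the lists are not reported here, although the counts and medians of the lists include them.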

Additional observations from a re-analysis of the deposited data

Results flagged for a closer look

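Groups of 2 libraries were too small to look for single samples that stand apart. What was looked for is a named gene whose response to STM2457 differed between the 2 durations or between the 2 lines by edgeR's interaction test (adjusted p under 0.05). Values are differences of log2 changes, and no explanation of them was tested.

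Between durations (6 days minus 3 days), the log2 change was higher at 6 days for CENPF (0.65), WDR74 (1.01), ALK (0.97), TRIL (1.45), MKI67 (0.52), RRM2 (0.51), MAP1B (0.17), MT-ND1 (0.47), MT-CYB (0.18) and MT-CO2 (0.18). ERBB4 (0.85), NGFR (0.73) and HSP90B1 (0.37), which had negative values at 3 days, also had the higher value at 6 days. The value was more negative at 6 days for ELN (-1.17), ALDOC (-1.08), COL5A1 (-1.07), COL1A1 (-0.72), COL18A1 (-0.67), ACTG1 (-0.43), ENO1 (-0.34) and IGF2 (-0.31). HPDL (-2.23), SOX12 (-0.74), VIM (-0.67) and HSPA5 (-0.57) had the larger value at 3 days.

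Between the lines (NGP minus Kelly), the value was higher in NGP for TFAP2B (1.03), MT-ND3 (0.91), MT-ND1 (0.79), TWIST1 (0.77), DBH (0.71) and MT-ND2 (0.70). It was lower in NGP for ELN (-1.64), FAM49A (-1.46), EPAS1 (-1.13), LAMA5 (-0.97) and IGFBP5 (-0.73). For DNAH6 the fitted difference was -6.95, but Kelly had 0 or 1 fragment of it in each DMSO library and 4 to 58 in the STM2457 libraries, so the size depends on the fit and is no bound.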

How the results depend on the processing

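The number of genes called in the 6 h comparison stayed within 1.5 times of 1447 under 8 of 10 settings (1269 to 1637) and when 1 library was left out (1074 to 1284). It was 3998 with ERCC scaling and 791 in the 6 day libraries alone, against 1281 in the 3 day libraries alone. Genes whose effect differed between durations numbered 584 with ERCC scaling, 543 with DESeq2 and 107 to 263 without 1 library, against 226. At 3 h the number was 865 to 1107 without 1 library, against 1307. The difference between 6 h and 3 h gave 1032 genes with ERCC scaling, 49 without the filter, 12 with DESeq2 and 0 to 12 without 1 library. The difference between NGP and Kelly gave 30 with ERCC scaling, 175 without the filter, 116 with DESeq2 and 35 to 66 without 1 library, against 49. The causes were not tested.

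Replicate numbers did not pair the libraries: deviations of libraries with the same number correlated at -0.027 to 0.029. With the replicate block the 5 comparisons gave 1269, 293, 906, 0 and 87 calls. On the ERCC scale CNOT1 (0.089), FADS1 (0.085), GAPDH (0.0095), HSP90B1 (0.057) and ATIC (0.065) reversed, none passing, and in the 3 day libraries alone RRM2 (-0.034) and CENPF (-0.080) did. A further 27 results of named genes lost their call on the ERCC scale, while 77 stayed the same and 2 gained a call. SHMT2 (-0.17), MTHFD2 (-0.12), IARS1 (-0.17) and KARS1 (-0.06) were among the 27. In the 3 day libraries alone 16 lost their call, and in the 6 day libraries alone 28. Of 103 named genes called at 6 h and refitted, 87 kept the call in all 8 refits without 1 library. Depth limits rare genes most: those counted by few fragments passed only at large changes.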

Other observations

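Lists outside the main results showed mixed directions. Of 31 tested genes of cholesterol and fatty acid synthesis (32 listed), 6 fell and 2 rose at 6 h, with a median of -0.064. At 3 h the balance was the other way, with 4 lower, 10 higher and a median of 0.20. SREBF2, the transcription factor that induces cholesterol synthesis, had 439 and 457 CPM with DMSO against 346 and 348 with STM2457 after 3 days, and 623 and 630.0 against 428 and 422 after 6 days, with no overlap (-0.46 ± 0.06 (SE, adjusted p = 3.8e-07)). INSIG1, which holds back SREBF2, fell by more (-0.94 ± 0.17), and STARD4, SREBF1, FASN and FADS1 fell by 0.46 ± 0.10, 0.39 ± 0.12, 0.17 ± 0.05 and 0.23 ± 0.06. The synthesis enzymes EBP (0.52 ± 0.14) and NSDHL (0.94 ± 0.24) rose.

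Of 20 endoplasmic reticulum stress genes, 3 rose and 3 fell: the chaperones PDIA4 (0.46 ± 0.07), HSPA5 (0.34 ± 0.09) and SDF2L1 rose, and the stress sensor ERN1 (-0.94 ± 0.26), CANX (-0.17 ± 0.05) and HSP90B1 (-0.26 ± 0.06) fell. HSPA5 lost its call without either DMSO library or STM2457 replicate 2 of 3 days, and HSP90B1 shares 11.6% of its exon bases with C12orf73 on the other strand. Of 23 genes of purine and pyrimidine synthesis, IMPDH2, the enzyme that commits to guanine nucleotides (-0.44 ± 0.08), ADSS2 (-0.38 ± 0.10) and ATIC (-0.25 ± 0.08) fell and UMPS, which makes UMP, rose (0.71 ± 0.13). ATIC lost its call in 5 of 8 refits that left out 1 library. Of 18 tested interferon response genes (26 listed), STAT2 rose (0.59 ± 0.17), with its call lost without DMSO replicate 2 or STM2457 replicate 1 of 3 days or STM2457 replicate 2 of 6 days, and none fell. Of 14 tested genes of retinoid uptake and receptors (17 listed), edgeR, DESeq2 and limma-voom each called 0, and edgeR's unadjusted p was under 0.05 for 0.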
